A study of Mus musculus with 49 samples.

Results

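Collagen genes encode the chains of the triple-helical proteins that make up most of the scaffold outside cells. They were taken as every protein-coding gene whose symbol is Col, a type number, a and a chain number, which gave 44 genes of the 43309 in the deposited table. They fall into 11 fibrillar collagens, 6 basement membrane collagens (the chains of type IV) and 27 others. Of the 44, 28 reached 1 FPKM (fragments counted on a gene, scaled to its length and to the size of the library) in at least 3 kidneys and entered the tests, 7 fibrillar, all 6 of type IV and 15 others. The other 16 stayed below that level and are given by their values alone. Of the 28, 4 (*Col4a6*, *Col7a1*, *Col8a2* and *Col17a1*) reached 1 FPKM in injured kidneys alone, with control kidneys no higher than 0.816, so they entered the tests through the groups where they were high. Their differences in comparisons of injured kidneys are therefore a description, and the counts against sham are given with and without them.

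The series is bulk RNA-seq of 49 whole mouse kidneys in 16 groups, with 3 kidneys a group and 4 at 6 months after IRI. Male C57BL/6NCrl mice had bilateral ischemia-reperfusion injury (IRI) at 10 to 12 weeks of age, with both renal pedicles clamped for 21 minutes, and kidneys were taken 2, 4, 24, 48 and 72 hours, 7, 14 and 28 days and 6 and 12 months later (IRI2h to IRI12m). Controls were sham-operated mice at 4 hours, 24 hours and 12 months (SHAM4h, SHAM24h and SHAM12m) and mice without surgery at 3, 9 and 15 months of age (NORM3m, NORM9m and NORM15m). For 1 of the 3 SHAM12m kidneys (replicate 3) the source label reads as injured. Every other label of that kidney calls it sham, and it stayed in the sham group.

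Each chain folds with others into a triple helix of repeated glycine triplets, and the trimers are then trimmed, assembled and crosslinked outside the cell. Fibrillar collagens (types I, III, V and relatives) form the banded fibers of connective tissue and of scars, and in the kidney they are made mainly by interstitial fibroblasts. Type IV collagen forms the sheet-like network of basement membranes. Its α1 and α2 chains occur in nearly every basement membrane. In the glomerulus the α3, α4 and α5 chains form the network of the mature basement membrane and are made by podocytes. Whole kidneys do not show which cells a transcript came from, so these chains are not read here as a measure of glomeruli.

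Genes of 3 type IV pairs lie head to head. In the genome build used for coordinates (GRCm38.p6) *Col4a1* (chr8:11198423-11312826, minus strand) and *Col4a2* (chr8:11312805-11449287, plus strand) share 22 exon bases at their starts, the starts of *Col4a4* (chr1:82448423-82586849, minus) and *Col4a3* (chr1:82586921-82722059, plus) lie 72 bases apart, and those of *Col4a6* and *Col4a5* on chromosome X lie 1309 bases apart. *Col3a1* (chr1:45311538-45349706), *Col1a2* (chr6:4504814-4541544) and *Col1a1* (chr11:94936224-94953042), which lie on 3 chromosomes, all read from the plus strand. The RefSeq promoter windows below are 300 bases long, most of it before the start that RefSeq annotates, and are shown because the 2 fibrillar genes and the type IV pair carry the main contrast of the series. Capitals mark 3 motifs on either strand: TATAAA, known as the TATA box, then CCAAT, and also GGGCGG, known as the GC box. The windows of *Col4a1* (chr8:11312777-11313076, minus) and *Col4a2* (chr8:11312555-11312854, plus) share 78 bases. Those of *Col1a2* (chr6:4505368-4505667) and *Col3a1* (chr1:45311288-45311587) are both on the plus strand. RefSeq starts *Col1a2* further along than the GENCODE span above, so its window lies inside that span.
Col1a2: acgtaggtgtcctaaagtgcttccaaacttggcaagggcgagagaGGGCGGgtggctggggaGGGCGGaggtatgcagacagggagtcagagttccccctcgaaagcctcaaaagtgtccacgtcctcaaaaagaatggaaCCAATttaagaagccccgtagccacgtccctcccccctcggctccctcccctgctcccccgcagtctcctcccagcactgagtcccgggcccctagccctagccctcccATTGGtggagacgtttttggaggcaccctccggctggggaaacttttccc
Col3a1: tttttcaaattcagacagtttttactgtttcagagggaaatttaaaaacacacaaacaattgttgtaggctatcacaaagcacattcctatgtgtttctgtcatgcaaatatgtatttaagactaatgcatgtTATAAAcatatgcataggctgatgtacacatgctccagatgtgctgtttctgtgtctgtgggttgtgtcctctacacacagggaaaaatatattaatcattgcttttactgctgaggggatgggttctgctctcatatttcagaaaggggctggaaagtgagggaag
Col4a1: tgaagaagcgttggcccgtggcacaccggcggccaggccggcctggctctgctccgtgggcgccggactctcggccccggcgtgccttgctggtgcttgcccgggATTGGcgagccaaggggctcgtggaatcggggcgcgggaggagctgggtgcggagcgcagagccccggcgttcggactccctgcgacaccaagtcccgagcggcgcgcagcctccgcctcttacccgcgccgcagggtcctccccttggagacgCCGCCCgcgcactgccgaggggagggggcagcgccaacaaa
Col4a2: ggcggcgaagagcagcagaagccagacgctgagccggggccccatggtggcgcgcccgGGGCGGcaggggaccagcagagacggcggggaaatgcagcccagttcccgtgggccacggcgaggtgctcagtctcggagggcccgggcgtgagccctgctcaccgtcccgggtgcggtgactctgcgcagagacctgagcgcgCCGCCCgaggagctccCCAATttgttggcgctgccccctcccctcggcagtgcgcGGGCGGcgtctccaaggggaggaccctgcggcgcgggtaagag

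A promoter window was found for 35 of the 44 genes, with 38 windows in all. The letters GGGCGG (a GC box) stood in 6 of 8 windows of fibrillar collagens, 4 of 5 of type IV and 13 of 25 of the others, against 35.7% of 32851 mouse windows. CCAAT stood in 3 of 8, 3 of 5 and 7 of 25, against 37.4%, and TATAAA in 2 of 8, 0 of 5 and 3 of 25, against 13.6%. A match describes these letters in this window and was not tested as a binding site.

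Depth was estimated from the smallest steps of the FPKM values and fell into 3 ranges: 10.5 to 23.5 M reads a library for the kidneys without surgery and IRI6m, 38.0 to 52.1 M for the sham groups of hours and IRI2h to IRI28d, and 70.0 to 88.0 M for SHAM12m and IRI12m. A comparison across these ranges cannot tell the sequencing set from the condition. Proximal tubule markers summed to between 793 and 5619 FPKM in every kidney, as in kidney tissue. The 6 cartilage and bone markers together summed to at most 0.215 FPKM in any kidney. All 6 stayed under 0.1 FPKM in every group but IRI48h, IRI14d and IRI6m, where 5 did. In whole kidneys, fewer cells of a type and less RNA per cell cannot be told apart.

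Summed over the class, fibrillar collagens moved far more than type IV collagens after IRI. FPKM are per length, so levels of different genes can be added. The 11 fibrillar collagens together measured 66.2 ± 4.45 FPKM (mean ± SD, n = 3) in SHAM24h kidneys, 296 ± 55.0 at 24 hours after IRI, 597 ± 106 at 48 hours, 649.6 ± 133 at 7 days and 663 ± 110.0 at 14 days, and then 311 ± 118 at 28 days. The lowest kidney from 24 hours to 28 days stood at 181 FPKM, above the highest SHAM24h kidney at 70.2. Type IV collagens started higher, at 178 ± 9.71 FPKM in SHAM24h, and group means lay between 398 and 441 FPKM from 24 hours to 14 days before reaching 258 ± 71.0 at 28 days. The other collagens went from 76.1 ± 7.26 FPKM in SHAM24h to 415 ± 45.5 at 14 days. The makeup of the collagen transcripts differed as well. The fibrillar share was 13.1 ± 1.97% in SHAM4h, 20.7 ± 0.881% in SHAM24h and 45.9 ± 3.02% at 7 days, while the type IV share was 55.5 ± 1.46% in SHAM24h and 28.3 ± 2.04% at 7 days. All 44 genes together took 0.0709 ± 0.00406% of all FPKM in SHAM24h and 0.327 ± 0.0391% at 14 days.

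**Figure D1:**
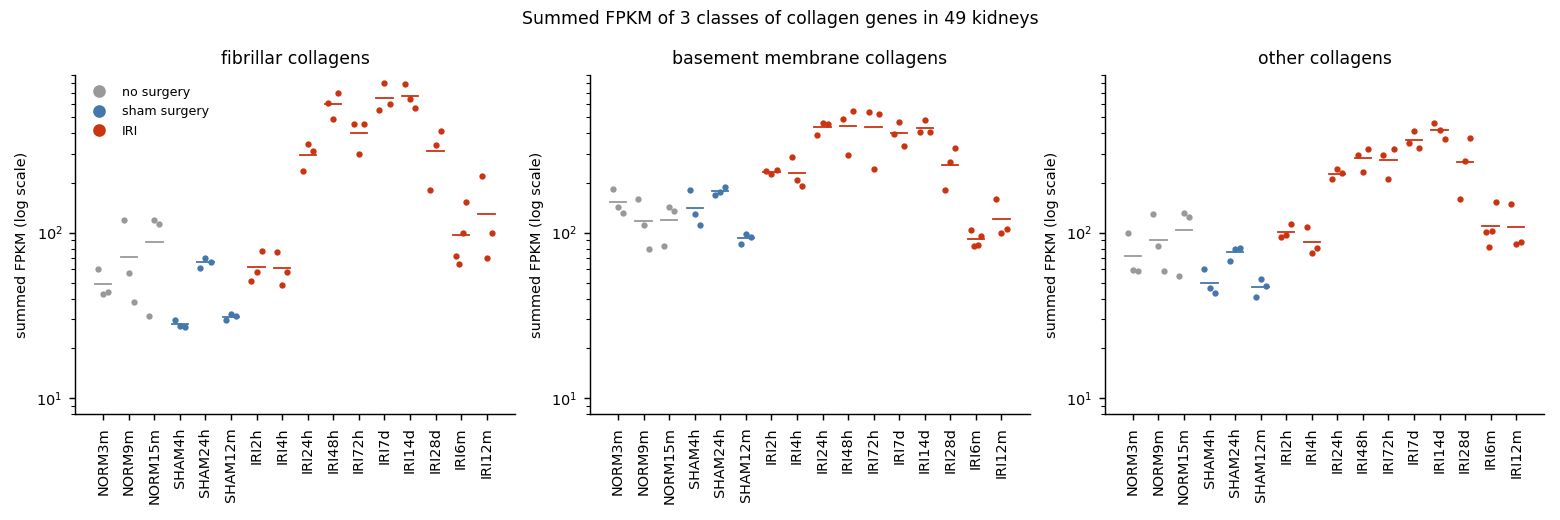
Summed FPKM (log scale) of fibrillar, basement membrane and other collagens in each of the 49 kidneys, grouped along the x axis by condition, with a bar at each group mean. The fibrillar sum went from a mean of 66.2 FPKM in SHAM24h to 663 at 14 days after IRI, and the type IV sum from 178 to 429.8.

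The comparison with sham kidneys asked which collagens changed at each time after IRI. Differences are log2 fold changes on log2(FPKM + 0.1) with their standard errors from limma, and a gene was called at a Benjamini-Hochberg adjusted p under 0.05 over the 14895 genes tested. SHAM4h served for 2 and 4 hours and SHAM24h for 24 hours to 28 days, so the 6 later comparisons share their controls. At 24 hours 19 of the 28 collagens rose and 3 fell, where 32.5% of all genes rose and 15.4% fell. At 48 hours 20 rose and 3 fell (28.5% and 23.1% of all genes), and at 72 hours again 20 and 3 (25.4% and 23.1%). IRI72h replicate 2 stood apart from its group in several members, and without it the 72-hour counts were 20 and 2. At 7 days 21 rose and 4 fell (33.8% and 14.5%), at 14 days 22 and 2 (30.9% and 18.9%), and at 28 days 20 and 2 (22.3% and 9.86%). Without the 4 collagens that passed through injured kidneys alone, 17 of 24 rose at 24 hours, 7 days and 28 days and 18 of 24 at 48 hours, 72 hours and 14 days, and the counts of those that fell were unchanged. The median change of the fibrillar collagens was 2.29 at 24 hours, 3.09 at 7 days and 3.13 at 14 days, that of type IV was 0.56, 0.55 and 1.22, and that of the others 1.55, 2.04 and 1.98. Over all genes the medians were 0.18, 0.17 and 0.09. Without *Col4a6* the type IV medians were 0.33, -0.07 and 0.63, so at 7 days the sign rested on that chain, and without *Col7a1*, *Col8a2* and *Col17a1* those of the others were 1.68, 2.09 and 1.89. Of the 28, 16 had their highest group mean at 14 days, 4 fibrillar, 3 of type IV and 9 others.

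**Figure D2:**
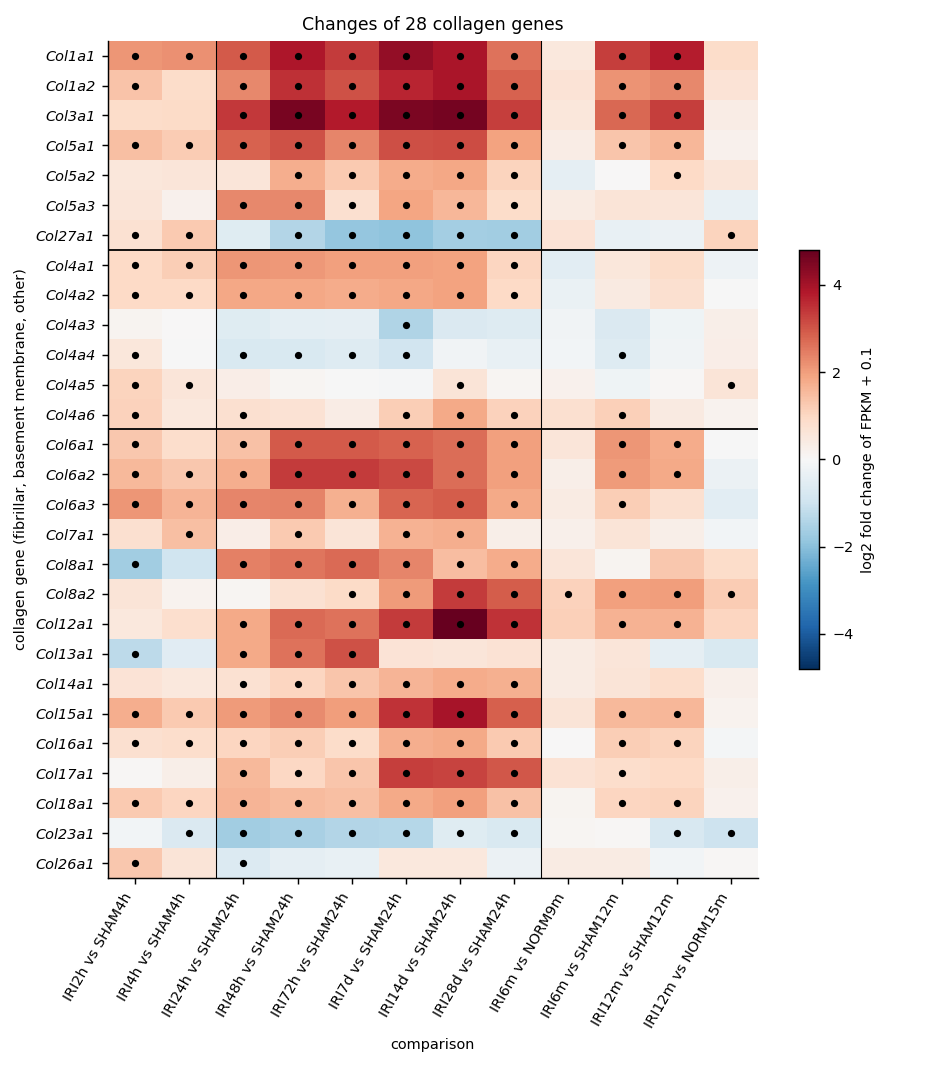
Log2 fold changes (color) of the 28 tested collagens (rows: fibrillar, basement membrane and other, divided by lines) in 12 comparisons (columns); a dot marks an adjusted p under 0.05 in limma. At 14 days 22 collagens rose and 2 fell, and from 6 months on fewer were called.

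Type I and type III collagens, the main fibers of scar tissue, reached the largest fibrillar changes. *Col1a1* (α1 chain of type I) measured 8.08, 10.6 and 7.82 FPKM in the 3 SHAM24h kidneys. It measured 55.0, 83.3 and 67.7 in IRI24h, 129, 117 and 144 in IRI48h and 102, 60.8 and 123 in IRI72h. At 7 days it reached 138, 204 and 157, at 14 days 168, 119.9 and 117 and at 28 days 31.8, 61.4 and 77.3. Every one of these 18 injured kidneys was above all SHAM24h kidneys, and the 28-day kidneys overlapped with those at 24 hours. The difference was 2.94 ± 0.51 (SE; adjusted p = 1.13e-05) at 24 hours, 4.21 ± 0.51 (SE; adjusted p = 2.32e-08) at 7 days and 2.59 ± 0.51 (SE; adjusted p = 0.000128) at 28 days. *Col1a2* (α2 chain of type I) measured 12.3, 17.5 and 15.8 FPKM in SHAM24h and 291, 207 and 193 in IRI14d, a difference of 3.90 ± 0.41 (SE; adjusted p = 2.04e-09). The 14-day kidneys of *Col1a2* were all at 193 FPKM or more, far above the controls. *Col3a1* (type III, which forms thin fibers with type I) measured 8.39, 12.5 and 9.77 FPKM in SHAM24h, 83.4, 126 and 119 in IRI24h, 255, 187 and 288 in IRI48h and 272, 257 and 214 in IRI14d. Its groups did not overlap with SHAM24h, and its difference was 3.40 ± 0.55 (SE; adjusted p = 3.52e-06) at 24 hours and 4.60 ± 0.55 (SE; adjusted p = 2.18e-08) at 14 days. Its exons share 141 bases with a same-strand gene, Gm47302.

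Type V collagens, minor chains that set the diameter of fibers, had smaller maxima, though at 24 hours *Col5a1* (2.84) stood between *Col1a1* (2.94) and *Col1a2* (2.29). *Col5a1* measured 1.30, 1.85 and 2.17 FPKM in SHAM24h, 11.6, 15.8 and 12.1 in IRI24h and 16.8, 16.1 and 15.0 in IRI14d, with no overlap, and its difference was 2.84 ± 0.37 (SE; adjusted p = 7.83e-08) and 3.13 ± 0.37 (SE; adjusted p = 1.68e-08). *Col5a2* did not pass the test at 24 hours (0.56, adjusted p = 0.0941) and rose from 48 hours to 28 days, by 1.73 at 48 hours and 1.87 at 14 days. *Col5a3* had an earlier course, with means of 0.720 FPKM in SHAM24h, 3.97 at 24 hours, 4.07 at 48 hours, 1.35 at 72 hours and 2.97 at 7 days. The step from 48 to 72 hours was a fall (-1.54 ± 0.31 SE, adjusted p = 0.00266), and the step from 72 hours to 7 days a rise (1.10 ± 0.31 SE, adjusted p = 0.00759). It was the 1 collagen that fell between 48 and 72 hours and 0 rose, where 1.74% of all genes fell and 1.15% rose. At an unadjusted p under 0.05 the counts were 1 lower and 0 higher. Of the fibrillar collagens below the expression filter, *Col11a1* reached 0.669, 0.689 and 0.407 FPKM at 14 days against 0.0053 to 0.0737 over the control kidneys, and *Col2a1*, *Col11a2* and *Col24a1* had no group mean over 0.256.

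*Col27a1*, a fibrillar collagen known mainly from cartilage, fell against SHAM24h from 48 hours to 28 days while the other 6 tested fibrillar members rose, and the direction of its change depended on the control. It measured 6.30, 5.49 and 5.98 FPKM in NORM3m and 7.05, 5.54 and 5.72 in SHAM4h but 23.6, 19.8 and 24.0 in SHAM24h. SHAM24h had the highest group mean of all, 1.90 ± 0.29 (SE; adjusted p = 8.16e-06) above NORM3m on the log2 scale. After IRI it measured 12.8, 13.9 and 17.7 in IRI4h, 11.8, 13.1 and 21.7 in IRI24h and 6.18, 5.98 and 5.43 in IRI7d. The 7-day kidneys were all below SHAM24h and overlapped with NORM3m and SHAM4h, and those at 24 hours overlapped with SHAM24h. It was called lower than SHAM24h from 48 hours (-1.40 ± 0.29 SE, adjusted p = 0.000108) to 28 days (-1.69 ± 0.29 SE, adjusted p = 1.76e-05). Against SHAM4h it was higher at 2 hours (0.73 ± 0.29 SE, adjusted p = 0.0422) and 4 hours (1.26 ± 0.29 SE, adjusted p = 0.00108), as *Col1a1* and *Col5a1* were at both times. Against NORM3m, a control chosen after the data were seen, it was higher at 4 hours, 1.29 (adjusted p = 0.000564), and 24 hours, 1.33 (adjusted p = 0.000181), and did not pass at 7 days, -0.01 (adjusted p = 0.977).

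**Figure D3:**
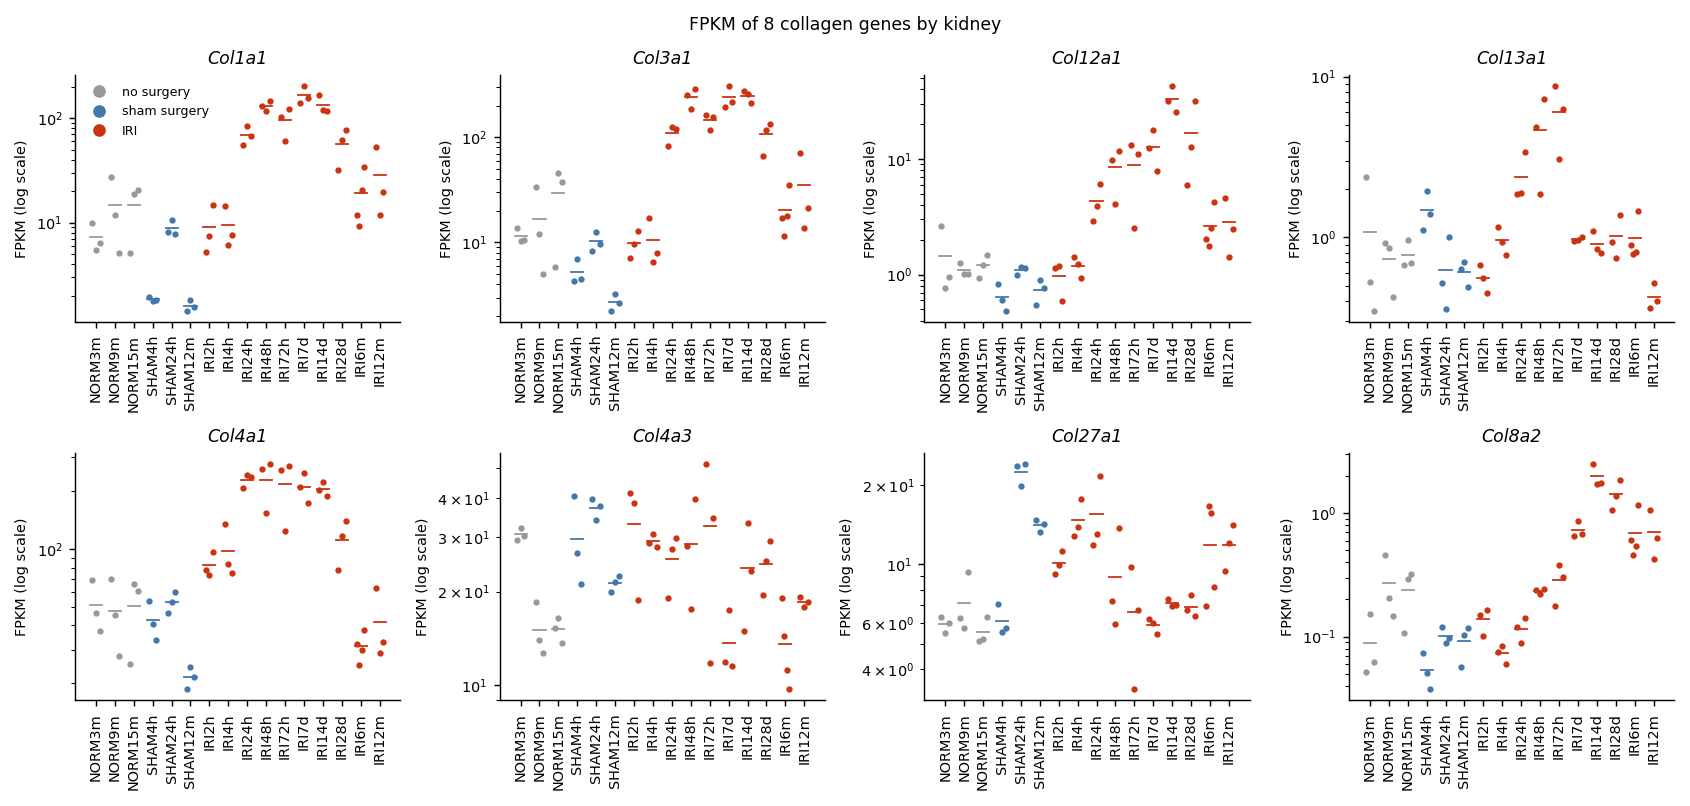
FPKM (log scale) of 8 collagens in each kidney, by group on the x axis, with a bar at each group mean; gray points are kidneys without surgery, blue points sham kidneys and red points injured kidneys. *Col1a1* and *Col3a1* stand above sham from 24 hours to 28 days, whereas *Col27a1* is highest in SHAM24h, with a mean of 22.5 FPKM.

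Among type IV collagens the ubiquitous α1 and α2 chains rose at all 8 times against sham (at 2 hours *Col4a1* not against NORM3m, 0.74, adjusted p = 0.0731), while the α3 and α4 chains of the mature glomerular network fell at some times from 24 hours on, and the α4 chain was higher at 2 hours. At 2 hours the calls of *Col4a1* and *Col4a2* were lost without SHAM4h replicate 2 or 3 or IRI2h replicate 3 (adjusted p from 0.0501 to 0.111), and at 4 hours that of *Col4a2* was lost without SHAM4h replicate 2 or 3 or IRI4h replicate 1 (adjusted p from 0.0688 to 0.161). *Col4a1* measured 46.7, 53.2 and 59.4 FPKM in SHAM24h, 208, 241 and 237 in IRI24h, 209, 249 and 174 in IRI7d and 203, 222 and 189 in IRI14d. All of these injured kidneys were above SHAM24h. The difference was 2.11 ± 0.33 (SE; adjusted p = 2.28e-06) at 24 hours and 1.95 ± 0.33 (SE; adjusted p = 9.12e-06) at 14 days. At 48 and 72 hours replicate 2 stood below the other kidneys of its group, with 259, 153 and 276 and 258, 124 and 271 FPKM, still above SHAM24h. *Col4a2*, its partner across the shared start region printed above, measured 34.9, 39.4 and 44.0 FPKM in SHAM24h, 128, 149 and 146 in IRI24h and 146, 161 and 139.6 in IRI14d. Its groups were likewise separate, and its difference was 1.84 ± 0.33 (SE; adjusted p = 1.7e-05) and 1.92 ± 0.33 (SE; adjusted p = 1.03e-05). The 2 genes ran in parallel, with a Pearson r of 0.996 over the 16 group means, given as a description since these means share libraries and depth ranges. At 28 days *Col4a1* differed by 1.03 ± 0.33 (SE; adjusted p = 0.0146). That call was lost without SHAM24h replicate 1 (0.95, adjusted p = 0.0607) or without IRI28d replicate 3 (0.85, adjusted p = 0.0953), and the *Col4a2* call at 28 days was lost without SHAM24h replicate 1 or 2 or IRI28d replicate 2 or 3 (adjusted p from 0.0535 to 0.162).

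The α3 and α4 chains fell where they were called from 24 hours to 28 days, and the α5 chain rose at 14 days. *Col4a3* measured 39.7, 33.8 and 37.6 FPKM in SHAM24h, 51.3, 11.8 and 34.5 in IRI72h, 11.9, 17.5 and 11.5 in IRI7d and 14.9, 33.3 and 23.3 in IRI14d. The 7-day kidneys were all below SHAM24h, and the 72-hour kidneys ranged across it. It fell at 7 days by 1.46 on the log2 scale (-1.46 ± 0.34 SE, adjusted p = 0.000571), and also against NORM3m, -1.18 (adjusted p = 0.00358), and no other time from 24 hours to 28 days passed. It would have passed at 72 hours without IRI72h replicate 1 (-0.87, adjusted p = 0.0417) and at 14 days without IRI14d replicate 2 (-0.98, adjusted p = 0.0274). Over 563 of its 9967 exon bases it overlaps C430014B12Rik on the opposite strand, and unstranded reads there cannot be assigned. *Col4a4* measured 36.8, 36.3 and 35.5 FPKM in SHAM24h, 18.7, 23.5 and 23.5 in IRI24h, 18.4, 20.0 and 18.7 in IRI7d and 26.0, 39.0 and 33.2 in IRI14d. Its 24-hour and 7-day kidneys were all below SHAM24h, and those at 14 days overlapped with it. It fell at 24 hours (-0.73 ± 0.19 SE, adjusted p = 0.00136), 48 hours (-0.73), 72 hours (-0.63, lost without replicate 2 of IRI72h at -0.39, adjusted p = 0.0899) and 7 days (-0.92 ± 0.19 SE, adjusted p = 9.19e-05). Against NORM3m only the fall at 7 days passed, -0.61 (adjusted p = 0.00561). At 2 hours *Col4a4* was higher than SHAM4h (0.54 ± 0.19 SE, adjusted p = 0.0192) and higher than NORM3m, 0.57 (adjusted p = 0.0135), and the first of these calls was lost without SHAM4h replicate 2 or 3 or IRI2h replicate 1 or 2 (adjusted p from 0.0593 to 0.105). *Col4a5* measured 11.0, 11.5 and 11.3 FPKM in SHAM24h and 14.7, 19.8 and 18.4 in IRI14d, all 3 above sham (0.63 ± 0.22 SE, adjusted p = 0.0171), a call lost without replicate 2 or 3 of IRI14d (adjusted p = 0.0665 and 0.0506). Its changes from 24 to 72 hours and at 7 and 28 days did not pass against SHAM24h, whereas against NORM3m it was higher at 24 hours, 0.89 (adjusted p = 0.000814), 48 hours, 0.65 (adjusted p = 0.0141), and 72 hours, 0.54 (adjusted p = 0.0396), the last with the opposite sign to the value against SHAM24h (-0.02). *Col4a6*, the least abundant type IV chain with a SHAM24h mean of 0.525 FPKM, differed from SHAM24h by 0.78 at 24 hours, by 1.16 and 1.81 ± 0.32 (SE) at 7 and 14 days and by 1.09 at 28 days, given as a description.

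The ratio of chains was taken within each kidney and compared between groups by a two-sided exact permutation test of 60 ratios and comparisons. With 3 kidneys against 3 the smallest p possible is 0.1 and its adjusted value here 0.143, so none could pass 0.05. The log2 ratio of *Col4a3* to *Col4a1* was lower than in sham by 2.67 at 24 hours, 3.44 at 7 days, 2.65 at 14 days, 1.64 at 28 days and 1.06 at 12 months, without overlap of the groups at any of these times (exact permutation p = 0.1 each). The ratio of *Col4a4* to *Col4a1* was lower by 2.84 at 24 hours, 2.90 at 7 days, 2.11 at 14 days and 1.03 at 12 months (exact permutation p = 0.1 each). That of *Col4a5* to *Col4a1* was lower by 1.78, 2.05, 1.32 and 0.80 at the same times (exact permutation p = 0.1 each). In contrast, the ratio of *Col4a1* to *Col4a2* moved by no more than 0.27 at any time. Between the 2 chains of type I, the log2 ratio of *Col1a1* to *Col1a2* was 0.64 higher at 24 hours, 0.54 at 7 days and 1.47 at 12 months (exact permutation p = 0.1 each), and 0.01 at 14 days (exact permutation p = 1). At 6 months against NORM9m the ratio of *Col4a3* to *Col4a1* was 0.35 higher (exact permutation p = 0.4). At 12 months the ratios of *Col4a3* and *Col4a4* to *Col4a1* overlapped with those of NORM15m. Podocyte markers did not fall with these chains as a list: 1 of 6 rose and 1 fell at 7 days, with sums of 66.1 to 77.1 FPKM against 64.0 to 90.7 in SHAM24h, and 3 of 6 rose at 24 hours.

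**Figure D4:**
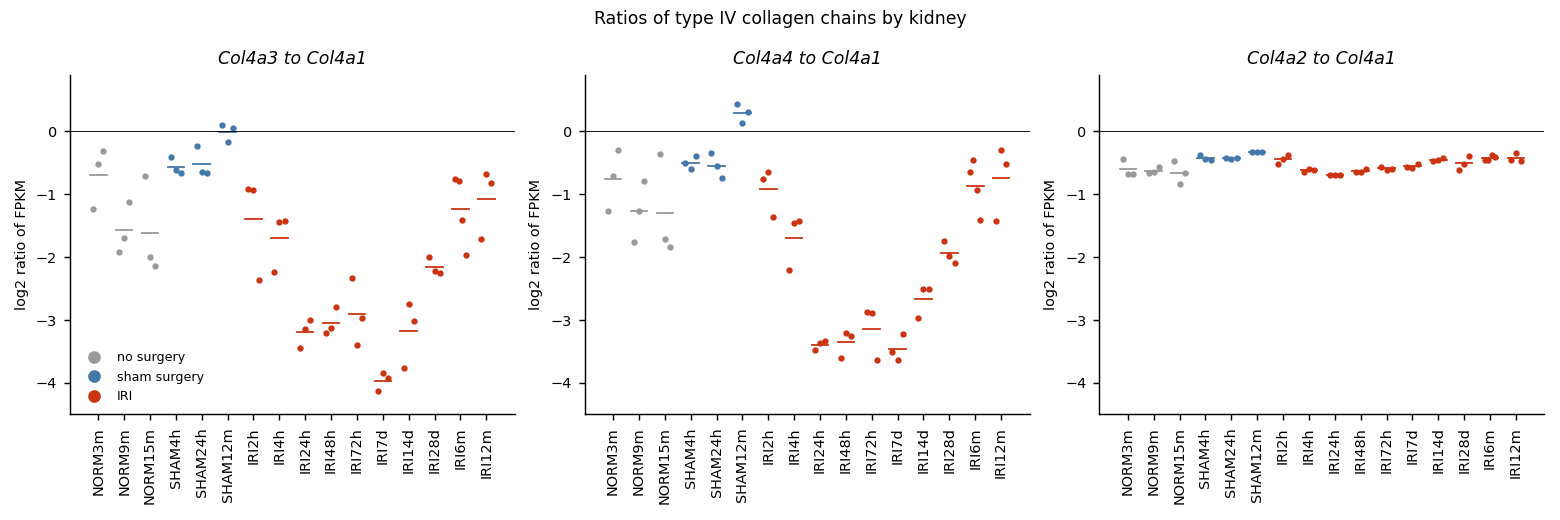
Log2 ratios of FPKM of *Col4a3*, *Col4a4* and *Col4a2* to *Col4a1* in each kidney, by group on the x axis, with a bar at each group mean. The first ratio lies 3.44 lower at 7 days after IRI than in SHAM24h, and the ratio of *Col4a2* to *Col4a1* stays near the same level in all groups.

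Of the collagens that attach to fibers or lie next to basement membranes, *Col12a1* and *Col15a1* gave the 2 largest changes of the other class. *Col12a1*, a collagen that binds to the surface of type I fibers, measured 1.00, 1.15 and 1.14 FPKM in SHAM24h, 2.92, 3.91 and 6.11 in IRI24h, 12.4, 17.9 and 7.87 in IRI7d and 31.4, 42.8 and 25.4 in IRI14d. All injured kidneys were above sham, and every 14-day kidney was above every 7-day kidney. The change at 14 days, 4.76 ± 0.51 (SE; adjusted p = 2.47e-09), was the largest of the 28 collagens in any comparison with sham. *Col12a1* was still rising from 7 to 14 days (1.42 ± 0.51 SE, adjusted p = 0.0385). *Col15a1*, a collagen of the outer face of basement membranes, measured 4.83, 6.56 and 6.33 FPKM in SHAM24h, 64.1, 81.2 and 56.5 in IRI7d and 101, 92.5 and 81.9 in IRI14d, without overlap (3.94 ± 0.37 SE, adjusted p = 1.88e-10). Its step from 72 hours to 7 days was 1.46 ± 0.37 (SE; adjusted p = 0.00346). *Col18a1*, the related precursor of endostatin, was abundant throughout and rose in all 8 comparisons from 2 hours to 28 days, from a mean of 42.7 ± 3.39 FPKM in SHAM24h to 169 ± 19.1 at 14 days (1.98 ± 0.25 SE, adjusted p = 3.88e-08). Of the other fiber-associated collagens, *Col14a1* rose in 6 of the 8 and *Col16a1* in all 8, by 1.79 and 1.80 at 14 days. Some of these calls depended on the control. Against NORM3m *Col16a1* did not pass at 2 hours (0.31, adjusted p = 0.33) or 4 hours (0.40, adjusted p = 0.209). *Col18a1* did not pass against it at 4 hours (0.52, adjusted p = 0.092), nor *Col14a1* at 24 hours (0.34, adjusted p = 0.323) or 48 hours (0.63, adjusted p = 0.0655).

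Type VI collagen, which forms beaded filaments around cells, had the highest means of its α1 and α2 chains at 72 hours. *Col6a1* measured 4.43, 6.39 and 6.22 FPKM in SHAM24h, 45.6, 32.7 and 55.9 in IRI48h and 61.7, 29.9 and 44.1 in IRI72h. All 6 injured kidneys were above sham (2.94 ± 0.45 SE, adjusted p = 1.17e-06 at 48 hours). *Col6a2* measured 2.31, 3.22 and 3.07 FPKM in SHAM24h and 42.3, 19.5 and 33.6 in IRI72h, also without overlap (3.37 ± 0.46 SE, adjusted p = 2.04e-07). *Col6a3* had its highest mean at 14 days, where it differed by 2.91 ± 0.35 (SE; adjusted p = 2.41e-08). *Col6a4*, *Col6a5* and *Col6a6* stayed below the filter. *Col6a4* had a mean of 0.0840 FPKM in SHAM24h and 1.29 at 7 days, *Col6a5* reached 0.267 at 12 months, and *Col6a6* had its highest mean, 0.531, at 2 hours and its lowest, 0.00713, at 48 hours. At 24 hours the calls of *Col6a1* and *Col6a2* depended on the control: against NORM3m the differences were 0.91 (adjusted p = 0.0824) and 0.90 (adjusted p = 0.0932).

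Transmembrane collagens moved at different times and in different directions. *Col13a1*, found at cell adhesions, measured 0.517, 0.359 and 1.00 FPKM in SHAM24h, 1.86, 1.89 and 3.38 in IRI24h, 8.77, 3.09 and 6.30 in IRI72h and 0.953, 0.964 and 0.997 in IRI7d. The 72-hour kidneys were all above sham, and the 7-day kidneys were just below the highest sham kidney. It rose by 3.06 ± 0.43 (SE; adjusted p = 4.14e-07) at 72 hours and fell from 72 hours to 7 days (-2.40 ± 0.43 SE, adjusted p = 0.000146). *Col17a1*, the hemidesmosome collagen of skin, measured 0.0389, 0.0302 and 0.0181 FPKM in SHAM24h, 1.55, 0.609 and 1.67 in IRI7d, 1.55, 0.912 and 0.993 in IRI14d and 0.484, 1.16 and 1.37 in IRI28d. It was at most 0.0389 in the sham kidneys and at least 0.484 in every kidney of these 3 times (3.31 ± 0.35 SE at 7 days), with a step of 1.99 ± 0.35 (SE) from 72 hours to 7 days, values that describe the groups through which it passed the filter. *Col23a1* was the member that fell most often, in 7 of the 8 comparisons. It measured 0.945, 1.02 and 1.01 FPKM in SHAM24h and 0.210, 0.190 and 0.337 in IRI24h, and these groups did not overlap (-1.68 ± 0.23 SE, adjusted p = 2.54e-07). It was still lower at 14 days (-0.58) and 28 days (-0.74), and against NORM3m it was lower at 24 hours too, -2.06 (adjusted p = 2.94e-09).

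Type VIII collagens, short-chain network formers known from vessels and the cornea, differed from each other in time. *Col8a1* had means of 1.31 FPKM in SHAM24h, 7.45 at 24 hours, 9.15 at 72 hours and 4.06 at 14 days, and rose by 2.70 ± 0.43 (SE; adjusted p = 2.62e-06) at 72 hours. *Col8a2* measured 0.119, 0.0882 and 0.0984 FPKM in SHAM24h, 0.654, 0.857 and 0.684 in IRI7d, 2.49, 1.72 and 1.77 in IRI14d and 1.05, 1.39 and 1.86 in IRI28d. Its kidneys at these 3 times were all above sham, highest at 14 days (3.36 ± 0.32 SE), and the kidneys of 14 and 28 days are the main ones through which it passed the filter. *Col10a1*, the related collagen of growth-plate cartilage, was below the filter, listed at 0 in all 3 SHAM24h kidneys, and measured 2.00, 2.06 and 0.989 FPKM in IRI7d and 0.473, 0.814 and 0.574 in IRI14d. *Col7a1*, the anchoring fibril collagen of skin, differed from SHAM24h by 1.26 at 48 hours, 1.67 at 7 days and 1.73 at 14 days, again the times through which it passed, and *Col26a1* fell at 24 hours (-0.66) with no call from 48 hours to 28 days. *Col19a1*, a fiber-associated collagen below the filter, had its highest mean, 0.596 FPKM, in SHAM12m. The remaining 7 others, *Col9a1*, *Col9a2*, *Col9a3*, *Col20a1*, *Col22a1*, *Col25a1* and *Col28a1*, had no group mean over 0.622 FPKM, that of *Col20a1* in SHAM24h.

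In the first hours the calls depended on which control was used. Against SHAM4h 16 of 28 collagens were higher and 2 lower at 2 hours (22.1% and 17.9% of all genes), and 12 higher and 1 lower at 4 hours (17.7% and 10.5%). Against NORM3m, the control chosen after the data were seen, 8 were higher and 0 lower at 2 hours by limma, with 1 lower at an unadjusted p under 0.05 (17.5% and 23.9%), and 4 higher and 1 lower at 4 hours (16.7% and 20.1%). Without SHAM4h replicate 2 the count of higher calls was 10 at 2 hours and 7 at 4 hours. With the 4 collagens that passed through injured kidneys alone left out, 15 of 24 were higher than SHAM4h and 2 lower at 2 hours. At 4 hours the counts were then 11 and 1. *Col1a1* measured 1.94, 1.78 and 1.83 FPKM in SHAM4h, 9.87, 5.46 and 6.41 in NORM3m, 5.28, 7.43 and 14.8 in IRI2h and 14.5, 6.13 and 7.66 in IRI4h. The SHAM4h kidneys were below all others here, and the injured kidneys overlapped with NORM3m. So *Col1a1* was higher than SHAM4h at 2 hours (2.11 ± 0.51 SE, adjusted p = 0.00124) and not called against NORM3m, 0.25 (adjusted p = 0.735). *Col4a1* was higher than SHAM4h at 4 hours (1.17 ± 0.33 SE, adjusted p = 0.00741), also against NORM3m, 0.94 (adjusted p = 0.0247), though not without IRI4h replicate 1 (0.91, adjusted p = 0.0721). *Col4a5* rose at 2 hours against both controls, 1.07 ± 0.22 (SE; adjusted p = 0.000232) and 0.74 (adjusted p = 0.00703). *Col8a1* measured 5.09, 6.96 and 3.95 FPKM in SHAM4h, 1.64, 1.03 and 1.10 in NORM3m and 1.67, 2.17 and 1.01 in IRI2h, so the SHAM4h kidneys were the high ones. It was lower than SHAM4h at 2 hours (-1.69 ± 0.43 SE, adjusted p = 0.00194) and not called against NORM3m, 0.30 (adjusted p = 0.601).

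Sham surgery itself was compared with no surgery and with its own course. SHAM4h had 1 collagen higher and 3 lower than NORM3m (6.81% and 15.4% of all genes): *Col8a1* was higher (1.99 ± 0.43 SE, adjusted p = 0.00084), and *Col1a1* (-1.87), *Col6a2* (-1.75) and *Col15a1* (-1.17) were lower. SHAM24h had 3 higher and 0 lower (16% and 4.9%; 0 lower at an unadjusted p under 0.05), namely *Col27a1*, *Col7a1* (1.15) and *Col26a1* (0.77). In both comparisons with NORM3m the shares of collagens called were below those of all genes, so these are values of single genes. From SHAM4h to SHAM24h 10 rose and 2 fell (26.5% and 6.57%), among them *Col1a1* up by 2.18 and *Col8a1* down by 1.92. The sham and no-surgery kidneys come from different depth ranges, so set and surgery cannot be told apart. Against NORM3m the later counts changed little in the higher direction, with 20 higher at 24 hours (41.7% of all genes) and 23 at 14 days (40.4%), while the lower calls were 1 each (15.2% and 19.1%).

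The course between injury times was tested as steps. From 4 to 24 hours 19 collagens rose and 1 fell (42.9% and 13.7% of all genes), with *Col3a1* up by 3.47 ± 0.55 (SE; adjusted p = 1.99e-06) and *Col23a1* the 1 that fell (adjusted p = 0.000444). From 24 to 48 hours 5 rose and 1 fell (7.88% and 17.1%): *Col1a2*, *Col5a2*, *Col6a1*, *Col6a2* and *Col7a1* rose, the largest being *Col6a2* (1.61), and *Col27a1* fell (-0.83). From 72 hours to 7 days 8 rose and 2 fell (22% and 3.73%), the 2 being *Col13a1* and *Col4a3* (-1.04). From 7 to 14 days 5 rose and 0 fell (8.35% and 15.4%; 0 fell at an unadjusted p under 0.05): *Col12a1*, *Col8a2* (1.32), *Col23a1* (0.79), *Col4a4* (0.76) and *Col4a5* (0.70). From 14 to 28 days 0 rose and 7 fell (11.4% and 6.77%; 0 rose at an unadjusted p under 0.05), with *Col7a1* (-1.45) and *Col5a1* (-1.18) the largest. From 7 to 28 days 1 rose and 7 fell (6.35% and 13.7%), *Col4a4* being the 1 that rose (0.57). The steps of *Col7a1* and *Col8a2* involve groups through which they passed the filter and are a description. With the 4 collagens that passed through injured kidneys alone left out, 17 of 24 rose and 1 fell from 4 to 24 hours. The counts were then 4 and 1 from 24 to 48 hours, 5 and 2 from 72 hours to 7 days and 4 and 0 from 7 to 14 days. They were 0 and 6 from 14 to 28 days and 1 and 6 from 7 to 28 days.

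At 12 months fibrillar collagens were higher than in the sham kidneys of the same time, and type IV collagens were not called (0 of 6 by limma, 2 higher at an unadjusted p under 0.05). In all 12 collagens were higher and 1 lower (8.44% and 0.369% of all genes), 5 fibrillar, 0 of type IV and 7 others higher. Without the 4 collagens that passed the filter through injured kidneys alone, 11 of 24 were higher and 1 lower. *Col1a1* measured 1.43, 1.82 and 1.55 FPKM in SHAM12m, 53.3, 11.7 and 19.8 in IRI12m and 5.12, 18.6 and 20.7 in NORM15m. All injured kidneys were above SHAM12m, and they overlapped with the kidneys without surgery. The difference was 3.78 ± 0.51 (SE; adjusted p = 5.24e-06) against SHAM12m and 0.88 ± 0.51 (SE; adjusted p = 0.192) against NORM15m. *Col3a1* measured 2.24, 3.24 and 2.65 FPKM in SHAM12m, 71.1, 13.9 and 21.1 in IRI12m and 5.89, 46.1 and 37.5 in NORM15m, with the same pattern (3.31 ± 0.55 SE, adjusted p = 0.000122 and 0.34, adjusted p = 0.674). Replicate 1 was the highest IRI12m kidney for both genes. Without it the count of higher collagens was 4 instead of 12. *Col1a1*, *Col1a2* and *Col3a1* kept their calls, and *Col5a1* was at 1.19 (adjusted p = 0.0929) and *Col12a1* at 1.26 (adjusted p = 0.313). The count of 4 includes *Col8a2*, which entered the tests through injured kidneys, IRI12m among them, and adds no support. *Col4a1* measured 18.7, 24.3 and 21.6 FPKM in SHAM12m and 62.8, 28.8 and 33.0 in IRI12m (0.87 ± 0.33 SE, adjusted p = 0.11). Its groups did not overlap, though the difference did not pass the test. *Col8a2* measured 0.0570, 0.102 and 0.118 FPKM in SHAM12m, 1.06, 0.425 and 0.628 in IRI12m and 0.107, 0.294 and 0.321 in NORM15m, and it was called against both controls (2.00 ± 0.32 SE, adjusted p = 7.06e-05 and 1.23 ± 0.32 SE, adjusted p = 0.00328). It passed the filter through injured kidneys alone, with IRI12m among their groups, so these differences are a description. *Col23a1*, the 1 lower collagen at 12 months (-0.75 ± 0.23 SE, adjusted p = 0.0349), was lower than NORM15m as well (-0.98 ± 0.23 SE, adjusted p = 0.00153).

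Against NORM15m 3 collagens were higher and 1 lower at 12 months (20.9% and 10.5% of all genes), *Col8a2*, *Col27a1* (1.07) and *Col4a5* (0.61) being the higher ones. Without the 4 collagens that passed through injured kidneys alone, 2 of 24 were higher and 1 lower. The 2 controls differed from each other: SHAM12m had 2 collagens higher and 12 lower than NORM15m (18.2% and 17.4%), with *Col1a1* at -2.90 ± 0.51 (SE; adjusted p = 4.46e-05). All 8 fibroblast markers, 1 of which is *Col1a1*, were lower in SHAM12m than in NORM15m as well, with sums of 42.7 to 68.0 against 112 to 305 FPKM, and so were 4 of the 5 adipocyte markers tested. These groups come from different depth ranges, and the part of either in the difference was not tested.

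At 6 months 1 collagen was higher than in the age-matched kidneys without surgery, and 0 were lower (6.25% and 2.07% of all genes; 0 lower at an unadjusted p under 0.05). It was *Col8a2*, which measured 0.457, 0.206 and 0.146 FPKM in NORM9m and 0.603, 0.462, 0.542 and 1.17 in the 4 IRI6m kidneys. All 4 were above the NORM9m kidneys, the lowest of them by little (1.12 ± 0.30 SE, adjusted p = 0.0147). The call was lost without NORM9m replicate 2 (1.02, adjusted p = 0.0889), NORM9m replicate 3 (0.87, adjusted p = 0.124) or IRI6m replicate 4 (0.86, adjusted p = 0.101). *Col8a2* passed the filter through injured kidneys alone, with IRI6m among their groups, so its difference is a description. Without the 4 such collagens 0 of 24 were called in either direction. *Col1a1* measured 27.4, 11.9 and 5.08 FPKM in NORM9m and 11.8, 9.36, 20.7 and 34.3 in IRI6m, with overlapping groups (0.50 ± 0.48 SE, adjusted p = 0.608). Against SHAM12m, which is from another depth range and of another age, 14 were higher and 1 lower (30.4% and 20.9%). Without the 4 collagens that passed through injured kidneys alone, 11 of 24 were higher and 1 lower. From 28 days to 12 months 0 collagens rose and 17 fell (3.67% and 10.1%), again across depth ranges, and 1 rose at an unadjusted p under 0.05. *Col12a1* (-2.34) and *Col17a1* (-2.15) fell most. Without the 4 collagens that passed through injured kidneys alone, 0 of 24 rose and 13 fell. *Col17a1* is 1 of those 4 and passed through IRI7d, IRI14d and IRI28d, so its fall is a description.

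Age without surgery had its clearest values in the α3, α4 and α5 chains of type IV. *Col4a3* measured 29.3, 32.1 and 30.2 FPKM at 3 months of age, 18.5, 14.0 and 12.7 at 9 and 15.3, 16.4 and 13.7 at 15. All kidneys at 9 and 15 months were below those at 3 months. NORM9m had 2 collagens higher and 3 lower than NORM3m (8.8% and 4.65% of all genes), *Col16a1* (0.78) and *Col8a2* (0.92) being the higher ones, and the lower ones being *Col4a3* (-1.03 ± 0.34 SE, adjusted p = 0.0402), *Col4a4* (-0.66) and *Col4a5* (-0.70). NORM15m had 2 higher and 2 lower (5.47% and 3.44%), the higher ones *Col5a3* (1.14) and *Col16a1* (0.79), the lower ones *Col4a4* (-0.63) and *Col4a5* (-0.82), with *Col4a3* at -1.01 ± 0.34 (SE; adjusted p = 0.0552). *Col4a1* did not pass at either age (-0.15 and -0.09). Podocyte markers gave 0 calls of 6 at either age by limma, and 0 at an unadjusted p under 0.05, with sums of 72.5 to 129 FPKM in NORM9m against 91.3 to 112 in NORM3m.

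The machinery that makes collagen was followed by lists of its genes. Of 11 tested genes for propeptide removal and crosslinking, 10 rose at 24 hours, 10 at 7 days and 9 at 14 days, with medians of 1.99, 2.08 and 2.20, and none fell. Of all genes 32.5%, 33.8% and 30.9% rose at these times and 15.4%, 14.5% and 18.9% fell, which is the background of the other lists too. *Adamts14* and *Pcolce2* passed the filter through injured kidneys alone, and without them 8 of 9 rose at 24 hours and 9 of 9 at 7 and 14 days. *Adamts2*, the procollagen N-proteinase, rose by 4.03 ± 0.41 at 14 days, and *Lox*, which starts crosslinks, by 3.65 ± 0.57, from a mean of 0.844 to 11.9 FPKM. *Loxl2*, a relative that acts on type IV collagen as well, rose by 3.07 ± 0.36. Of 17 tested genes for folding and modification within the cell, 12 rose and 2 fell at 24 hours, 11 and 2 at 7 days and 9 and 3 at 14 days, with medians of 0.50, 0.54 and 0.34, so the share that fell at 14 days was near that of all genes. *Fkbp10*, a prolyl isomerase of the procollagen helix, rose by 2.63 ± 0.26 at 14 days. *Leprel2*, a prolyl 3-hydroxylase, rose by 2.00 ± 0.21, and *Serpinh1*, the collagen chaperone, by 1.81 ± 0.27, from 44.9 to 165 FPKM.

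Of 8 tested proteoglycans and matricellular genes that bind fibers, 6 rose and 1 fell at 7 days and 5 and 1 at 14 days, with medians of 1.21 and 1.30. *Bgn* (2.69 ± 0.27), *Sparc* (2.52 ± 0.29) and *Lum* (2.10 ± 0.40) changed most at 14 days. Of 6 tested receptors, 4 rose and 0 fell at 14 days (median 1.11), with *Mrc2*, which takes collagen fragments into cells, at 2.78 ± 0.30, *Lair1* at 2.59 ± 0.39 and *Ddr2* at 1.44 ± 0.39. Of 6 tested genes for degradation, 5 rose at 7 days and 4 at 14 days and 0 fell at either, with medians of 3.52 and 3.44. *Mmp8* and *Mmp9* passed the filter through injured kidneys alone, and without them 3 of 4 rose at both times, with the same medians. *Mmp2*, a gelatinase, rose by 4.62 ± 0.37, from 1.64 to 43.7 FPKM at 14 days, and was not called at 24 hours (0.17, adjusted p = 0.746). *Mmp9* (3.97 ± 0.47) and *Mmp14* (3.83 ± 0.40) rose with it. Of 14 tested basement membrane partners, 11 rose and 0 fell at both 24 hours and 14 days (medians 0.99 and 1.30), with *Nid1* (2.30 ± 0.29) and *Lama4* (1.81 ± 0.20) among them at 14 days. Over all genes the median was 0.09 at 14 days.

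At 12 months the calls of the lists depended on the control, as those of the collagens did, and no difference between lists was tested. Of the 11 crosslinking genes 8 passed as higher against SHAM12m and 0 as lower (median 0.95; 8.44% and 0.369% of all genes). Against NORM15m 0 were called in either direction by limma, and 0 at an unadjusted p under 0.05 (median 0.22; 20.9% and 10.5%). *Lox* had means of 0.386 FPKM in SHAM12m, 2.30 in IRI12m and 1.99 in NORM15m, a difference of 2.13 ± 0.57 (SE; adjusted p = 0.0118) against SHAM12m and 0.27 ± 0.57 (SE; adjusted p = 0.754) against NORM15m. Of the 14 basement membrane partners 0 were called against SHAM12m in either direction by limma (3 were higher and 0 lower at an unadjusted p under 0.05), with a median of 0.22, while NORM15m as the control gave 3 higher and 0 lower. Of the 6 degradation genes 3 passed as higher against SHAM12m and 1 against NORM15m. That 1 was *Mmp2*, called against both (2.81 ± 0.37 SE, adjusted p = 2.69e-06 and 0.96 ± 0.37 SE, adjusted p = 0.0427). Of the 8 proteoglycans 5 passed as higher against SHAM12m and 0 against NORM15m (3 at an unadjusted p under 0.05). *Dcn*, a small proteoglycan of fibers, had means of 13.9, 72.2 and 69.0 FPKM in SHAM12m, IRI12m and NORM15m, and *Lum*, a related one, 0.913, 10.0 and 6.24 FPKM. Of the 17 folding genes 3 passed as higher and 1 as lower against SHAM12m, and 5 and 1 against NORM15m. *Serpinh1* did not pass against either (0.71 ± 0.27 SE, adjusted p = 0.106 and -0.26 ± 0.27 SE, adjusted p = 0.5), and *Leprel1* changed sign, from -0.56 ± 0.17 (SE; adjusted p = 0.0245) to 0.74 ± 0.17 (SE; adjusted p = 0.000802). The largest called changes against SHAM12m were further *Lum* (3.25), *Dcn* (2.35) and *Bgn* (1.58), *Adamts2* (2.74) and *Loxl2* (1.64), *Ctsk* (2.12) and *Mmp14* (2.03), the receptors *Ddr2* (1.34) and *Mrc2* (1.30), and *Fkbp10* (1.26) and *Leprel2* (0.89). Against NORM15m these 11 genes did not pass.

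**Figure D5:**
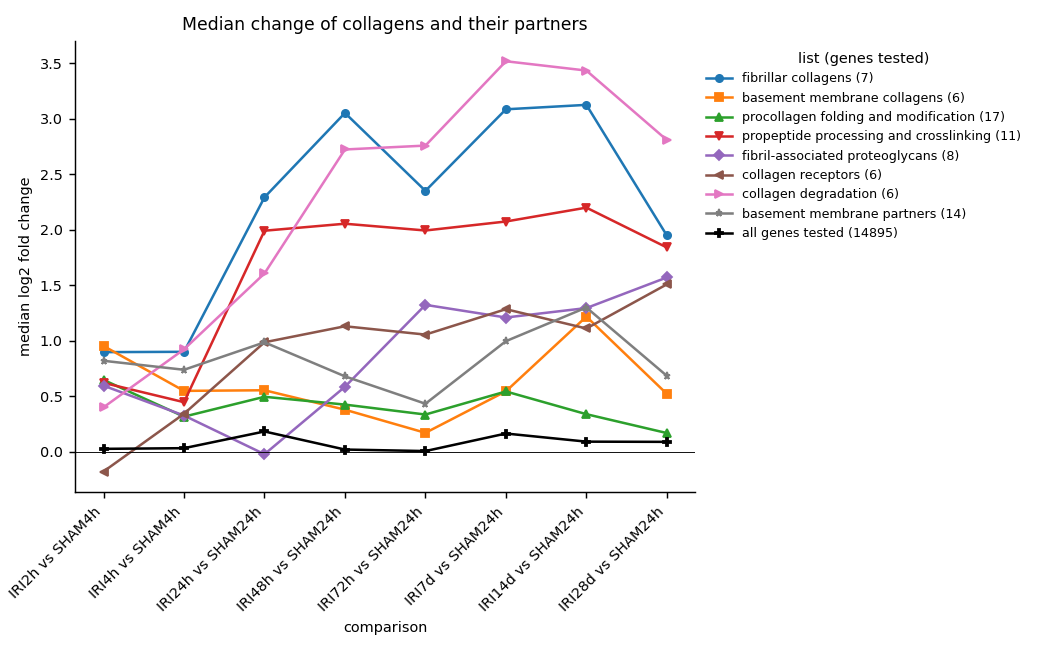
Median log2 fold change (y axis) of collagen classes and lists of partner genes in the 8 comparisons from 2 hours to 28 days after IRI (x axis); the legend gives the genes tested in each list, and the black line is all genes tested. Fibrillar collagens reach 3.13 at 14 days, degradation genes 3.44 and the median of all genes 0.09.

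Cell type markers moved beside the collagens. Of the 8 fibroblast and myofibroblast markers, 1 of which is *Col1a1*, 7 rose at 24 hours and 8 at 7 days and 0 fell, and their sum ranged from 75.6 to 87.2 FPKM in SHAM24h and from 407 to 518 in IRI7d. All 5 macrophage markers rose at 7, 14 and 28 days, with sums of 16.1 to 17.3 FPKM in SHAM24h and 95.4 to 118 at 7 days. Of 6 proximal tubule markers 4 fell at 24 hours, with sums of 3038 to 3192 and 793 to 1115 FPKM. Endothelial sums were 55.9 to 79.5 FPKM in SHAM24h and 122 to 133 at 24 hours. The part of cell makeup in the collagen changes was not tested.

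The genes whose course was most like a collagen were ranked by Pearson r over the 16 group means, which share libraries, and are given as a description. For *Col1a1* they were *Loxl2* (0.978), *Emilin1* (0.977) and *Sparc* (0.976), and for *Col3a1* *Loxl2* (0.990), *Emilin1* (0.981) and *Sparc* (0.979). For *Col4a1* they included *F2rl1* (0.964), and for *Col18a1* they were *Fbn1* (0.978), *Scarb1* (0.975) and *Lrp1* (0.974). *Col4a3* had no gene above 0.846, that of *Gucd1*, followed by *Plekha7* (0.845). Within type IV, *Col4a3* and *Col4a4* had an r of 0.813.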

How the data were processed

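Total RNA of 49 mouse kidneys was made into unstranded TruSeq libraries and sequenced in pairs on a HiSeq 2000 by the authors, who mapped reads with STAR 2.5.0b to the mm10 genome with GENCODE annotation, removed duplicates and used DESeq2 for their own calls. The deposited table holds FPKM per gene, values that the authors normalized to gene length and library size; the tool that made them is not given in the sources used here. No column was left unmapped to a sample (0), and 0 pairs of libraries were identical. Replicates are separate samples in the labels, and p-values measure the spread between those samples.

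The collagens and the lists of partner genes and cell type markers were chosen with earlier results of these data known. Tests used limma 3.58.1 (R 4.3.3) and log2 of FPKM plus 0.1, with all 49 libraries and 16 groups in 1 fit with a trended, robust variance, over the 14895 genes with at least 1 FPKM in at least 3 libraries, and Benjamini-Hochberg adjustment ran over those genes for every comparison apart. A fold change on this scale understates the change of low genes. Depth is known only as an estimate: at least 71.0% of low values in each library came out as whole reads within a tolerance of 0.1, too few for a count test. Ratios of chains were tested by exact permutation with scipy 1.17.1, and tables were handled with Python 3.11.15, numpy 2.4.6 and pandas 2.3.3 and drawn with matplotlib 3.10.9. The test was tried on simulated data.

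Values in every kidney were given for 8 collagens fixed by name (*Col1a1*, *Col1a2*, *Col3a1* and *Col4a1* to *Col4a5*) and the 8 others with the largest called change against SHAM24h; of each partner list, the 3 largest called changes, with *Serpinh1*, *Lox* and *Mmp2*, were named, apart from items that are not reported here. *Col27a1*, *Col23a1*, *Col8a1*, *Col10a1* and *Col11a1* are given by kidney beyond that rule, chosen after their values were seen. Same-numbered replicates did not deviate together (correlations of deviations from -0.158 to 0.174, with no comparison above 0.1 in all its numbers), so no pairing was used. Counts of collagen triplet repeats in the proteins were not run. Alternatives tried were the pseudocount, the filter, quantile normalization, a fit without trend and robust steps, a fit on the 2 groups compared, a replicate block, each library left out and NORM3m as the control.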

Additional observations from a re-analysis of the deposited data

Results flagged for a closer look

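Of the 28 tested collagens in the 4 IRI6m kidneys, 2 had 1 kidney apart from the others by Dixon's test of the gap at the 95% level, and chance marks about 1 group in 20. In replicate 4, *Col13a1* measured 1.46 FPKM (gap ratio 0.852) and *Col17a1* 0.302 FPKM (gap ratio 0.911).

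The effect of IRI differed between 4 and 24 hours, each against its own sham, in 10 of the 28 collagens by limma. Of all genes 22.4% differed upward and 15.1% downward. Without the 4 collagens that passed the filter through injured kidneys alone, *Col17a1* among them, 5 of 24 differed upward and 4 downward. In both directions the share of collagens was near that of all genes, so the values below describe single genes and not the set. On the log2 scale, 24 hours minus 4 hours, *Col8a1* differed by 3.40 (adjusted p = 3.6e-05), *Col3a1* by 2.502 (adjusted p = 0.0108), *Col13a1* by 2.38 (adjusted p = 0.00248), *Col5a3* by 2.07 (adjusted p = 0.000259), *Col5a1* by 1.63 (adjusted p = 0.013) and *Col17a1* by 1.26 (adjusted p = 0.0409). Those with a lower effect at 24 hours were *Col27a1* at -1.83 (adjusted p = 0.000568), *Col26a1* at -1.28 (adjusted p = 0.0058), *Col23a1* at -0.97 (adjusted p = 0.0186) and *Col4a4* at -0.71 (adjusted p = 0.0321). The shams of 4 and 24 hours differed themselves in 5 of these 10, as SHAM24h minus SHAM4h: *Col8a1* (-1.92), *Col27a1* (1.87), *Col26a1* (1.39), *Col13a1* (-1.19) and *Col5a1* (0.96), and the part of the shams in these differences was not tested.

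Between 24 hours and 12 months, each against its own sham, the effect differed in 5 of the 28 collagens (10.1% of all genes upward and 11.7% downward). Without the 4 collagens that passed the filter through injured kidneys alone, *Col8a2* among them, 1 of 24 differed upward and 3 downward. The share upward was below that of all genes and the share downward near it, so the values below describe single genes. *Col8a2* passed through groups that include IRI12m, so its difference is a description. As 12 months minus 24 hours, *Col8a2* differed by 1.91 (adjusted p = 0.00213) and *Col23a1* by 0.93 (adjusted p = 0.0398), while *Col13a1* was at -2.24 (adjusted p = 0.00745), *Col5a3* at -1.71 (adjusted p = 0.0039) and *Col6a3* at -1.56 (adjusted p = 0.0212).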

How the results depend on the processing

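Over 16 named collagens and 10 comparisons, 2000 of 2096 values under the other settings kept their side of the threshold. Of the rest, 80 lost their call and 16 gained one. No value that was called in the main fit or under the other setting changed sign. Changes of sign between values called in neither fit were not counted apart and lie within the 2000. With NORM3m as the control, chosen after the data were seen, 105 of 128 kept their side, 16 lost their call and 4 gained one. The other 3 changed sign and were called against 1 of the 2 controls: *Col6a2* at 2 hours (-0.19, adjusted p = 0.776) and 4 hours (-0.46, adjusted p = 0.46) and *Col4a5* at 72 hours (0.54, adjusted p = 0.0396). Uncalled changes of sign lie within the 105, as for *Col6a1* at 4 hours (-0.32 against NORM3m, adjusted p = 0.616). With that control 8 collagens were higher and 0 lower at 2 hours and 4 higher at 4 hours, and 1 was lower at 24, 48 and 72 hours and at 14 and 28 days. A pseudocount of 1 gave 1 lower at 2 hours and 2 at 4 hours, and one of 0.01 gave 0 lower at 12 months. Without the filter the lower counts were 5 at 24 hours, 6 at 48 hours, 7 at 72 hours, 4 at 28 days and 2 at 12 months, and 3 were higher at 6 months, with more genes tested. Quantile normalization gave 9 higher and 2 lower at 4 hours and 0 higher at 6 months, and shifted the median of all genes, which was -0.02 in place of 0.18 at 24 hours and -0.08 in place of 0.17 at 7 days. A fit on the 2 groups alone gave 5 lower at 24 hours, 1 lower at 14 days and 0 higher at 6 months, from fewer samples. The cause of the other shifts was not tested. With the replicate number as a block, a fit that also left out IRI6m replicate 4, 0 were higher at 6 months. No other count moved by over 1.5 times. *Col8a2* at 6 months was at 0.86 in that limma fit (adjusted p = 0.114). It was at the same value with only that kidney left out (adjusted p = 0.101).

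Leaving out 1 library gave 10 to 17 higher and 1 to 2 lower at 2 hours, 7 to 12 higher and 0 to 1 lower at 4 hours, 17 to 19 higher and 2 to 4 lower at 24 hours, 2 to 4 lower at 72 hours, 1 to 2 lower at 14 days, 0 to 2 higher at 6 months, and 4 to 13 higher and 0 to 1 lower at 12 months. The counts of 10 and 7 came without SHAM4h replicate 2, and that of 4 without IRI12m replicate 1. At 6 months the count was 0 without NORM9m replicate 2 or 3 or IRI6m replicate 4. The kidneys without surgery and at 6 months, at 10.5 to 23.5 M reads, were the least deeply sequenced, and a change that did not pass is not shown to be absent.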
